A study of Mus musculus with 12 samples.

Results

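The comparison described here is the response to necrotic osteocyte supernatant of osteoclast cultures that lack Mincle, across all expressed genes. It rests on 6 of the series' 12 RNA-seq libraries, chosen by genotype from the sample titles: 3 libraries of Mincle knockout (KO) cultures given supernatant of necrotic osteocytes (KO necrotic) and 3 of KO cultures given supernatant of viable osteocytes (KO viable). The other 6 libraries come from wildtype (WT) cultures under the same pair of supernatants, and they enter for the estimate of spread and for the test of whether the KO response differs. Both genotypes are on a C57BL/6 background. Bone marrow derived monocytes were differentiated with M-CSF (20 ng/ml) and RANKL (10 ng/ml), supernatant was added at a 1:2 dilution on day 1 and left for 24 h, and total RNA was taken on day 3. Of 46983 genes in the deposited table, 14153 passed the filter on low counts and were tested.

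Osteoclasts are multinucleated cells that form by fusion of monocyte-lineage precursors and dissolve bone by secreting acid and proteases into a sealed pit. RANKL drives the precursors through the transcription factor NFATc1 towards this fate, with help from receptors coupled to ITAM adaptors. Mincle, encoded by Clec4e, is such a receptor, a C-type lectin of myeloid cells that binds ligands released by dying cells and signals through the Fc receptor gamma chain and the kinase Syk. The question put to these 6 libraries is which genes respond to necrotic supernatant when Mincle is deleted.

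The necrotic supernatant came from serum-starved osteocytes, and starved medium that never held cells was not among the treatments. Products of necrotic cells and a difference in serum or in osteocyte factors therefore cannot be told apart. Nothing in the labels says whether replicates 1 to 3 were separate mice, cultures or wells. The p-values thus rest on the spread among the 3 libraries of a group, part or all of which may be technical. In cultures of mixed cells, fewer cells of a type and less RNA per cell cannot be told apart either. The KO libraries held 16382366 to 25429661 counts, and 3 counts, the level that a count of 0 allows, corresponded to 0.119 to 0.182 CPM, the counts scaled to a common library size. KO necrotic 2 stood apart from the other libraries of its group in small structured RNAs, chosen for mention after their values were seen. The 7SK RNA gene Rn7sk was listed at 0.909, 36.9 and 1.08 CPM in KO necrotic 1, 2 and 3, against 0.622, 0.484 and 0.486 CPM in KO viable 1, 2 and 3. The ribosomal RNA gene CT010467.1 was at 272, 5534 and 456 CPM in KO necrotic and 266, 236 and 256 CPM in KO viable libraries. The same RNAs were high in WT necrotic 1, at 26.3 CPM for Rn7sk and 4303 CPM for CT010467.1, and in part in WT viable 3, at 5.7 and 1081 CPM. Neither passed the test over all 12 libraries (adjusted p = 0.115 and 0.0994), but both passed with the KO libraries alone (adjusted p = 0.0429 and 0.0274). The counts of the main gene lists are also given without KO necrotic 2.

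Clec4e lies on chromosome 6, 123281789 to 123289870, minus strand of GRCm38, under the identifier ENSMUSG00000030142. Its level was 1.98, 1.56 and 2.29 CPM in KO necrotic, against 1.63, 1.57 and 2.43 CPM in KO viable libraries. The WT libraries held 27.8, 21.9 and 25.4 CPM (WT necrotic) and 22.8, 23.7 and 26.1 CPM (WT viable), so all 6 KO libraries lay below all 6 WT libraries. Between the KO groups the levels overlapped (log2 fold change 0.03, SE 0.21, adjusted p = 0.955). Reads were still counted for the gene in KO libraries, and which stretch was deleted is not given in the sources used here. Defining osteoclast markers were present in every KO library: Acp5 was at 3910 CPM or more and Ctsk at 4646 CPM or more.

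Necrotic supernatant changed 1052 of the 14153 genes in KO cultures (7.43%): 566 were higher (4.0%) and 486 lower (3.43%) at an adjusted p under 0.05 in edgeR's quasi-likelihood test, which supplies every adjusted p below unless another test is named. Most changes were small. The median absolute log2 fold change among them was 0.29, equal to 1.22-fold, 422 changed by less than 1.2-fold, 130 by at least 1.5-fold and 36 by at least 2-fold (13 up, 23 down). The groups did not overlap for 1050 of the 1052 genes, against 4434 of all genes tested (31.3%). A lack of overlap named below therefore adds little to a call, and for the largest changes it was a condition of choice. Leaving out any KO library shortened the list, to 484, 647 and 383 genes without KO necrotic 1, 2 and 3 and to 607, 548 and 501 without KO viable 1, 2 and 3. In all 6 of these fits 310 genes kept their call (163 higher, 147 lower), and 216 lost it in every one. A test against a change of 1.2-fold in place of no change called 30 genes (14 higher, 16 lower).

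**Figure D1:**
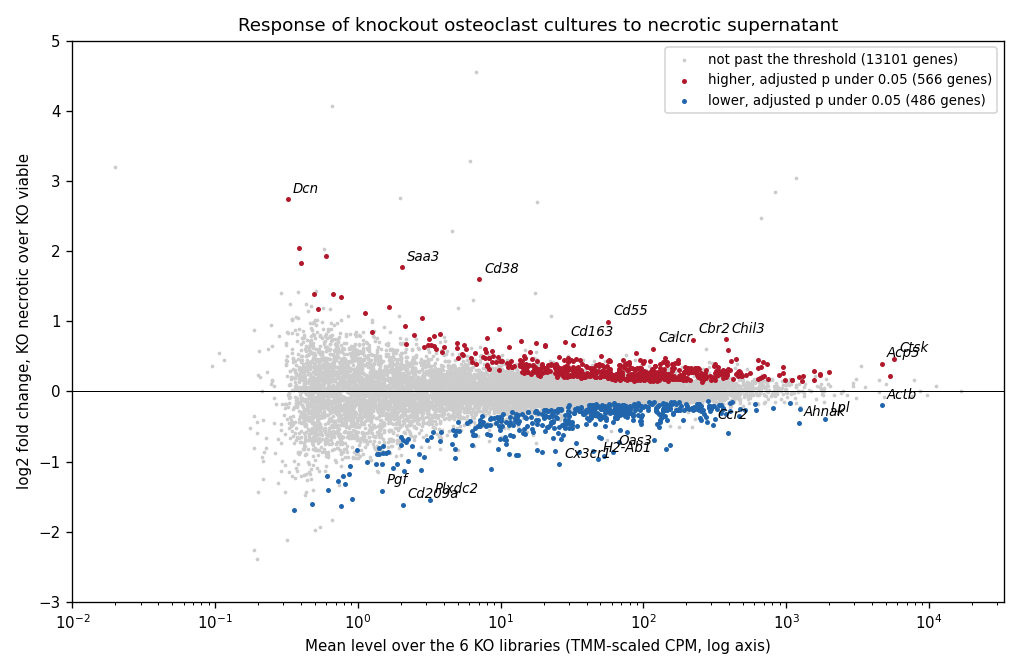
Log2 fold change of KO necrotic over KO viable cultures (y axis) against the mean level over the 6 KO libraries in TMM-scaled CPM (x axis, log scale) for the 14153 genes tested, with 566 genes higher in red, 486 lower in blue and the rest in grey. The coloured genes form a narrow band close to 0 at high levels, where small changes pass the test, and Cd38, Cd55, Cd209a, Plxdc2 and Cx3cr1 lie far outside it.

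Among genes with a mean of at least 1 CPM, an established name and a call that held whichever library was left out, Cd38, an ectoenzyme that breaks down NAD, rose most. A number in brackets after a gene name is its log2 fold change. Cd38 was at 10.6, 10.7 and 10.8 CPM in KO necrotic, against 3.25, 3.57 and 3.73 CPM in KO viable libraries, so that the lowest KO necrotic library held more than the highest KO viable library by a wide margin. Its log2 fold change was 1.60 (SE 0.15, adjusted p = 7.36e-05). Cd55, a membrane inhibitor of complement, was at 76.8, 72.5 and 78.1 CPM in KO necrotic, against 32.4, 40.1 and 41.9 CPM in KO viable libraries (log2 fold change 0.99, SE 0.09, adjusted p = 4.09e-05). Smaller rises were those of Krt7, a keratin (0.72), Plpp1, a lipid phosphatase (0.69), the muscle ankyrin repeat gene Ankrd2 (0.78), the actin-capping gene Tmod1 (0.82) and the collagen gene Col15a1 (0.77, all log2 fold changes). Collagen genes as a list did not rise: of 25 tested 21 had a negative value and 4 a positive one, with a median of -0.404. Of these 25, 1 was higher and 1 lower (8% called, against 7.43% of all genes). The acute-phase gene Saa3 had a larger fitted change than Cd38, with 3.4, 2.65 and 3.33 CPM in KO necrotic and 0.622, 1.09 and 1.05 CPM in KO viable libraries, groups that do not overlap (log2 fold change 1.77, SE 0.47, adjusted p = 0.0341). At this low level its call was lost whichever of the 6 libraries was left out (adjusted p between 0.0564 and 0.122). The calls of Pacsin3 (0.81) and the pseudogene Rpl3-ps2 (0.84), whose reads may belong to its parent gene, were lost in the same 6 fits, with adjusted p up to 0.158 and 0.204. Gpm6b (0.74) lost it without KO necrotic 3, KO viable 2 or KO viable 3, and Fbxl16 (0.69) without KO necrotic 3 or KO viable 3 (adjusted p up to 0.0731 and 0.0638).

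On the lower side, Cd209a, a lectin gene of dendritic cells, was at 0.712, 1.14 and 1.22 CPM in KO necrotic, against 3.54, 2.54 and 3.2 CPM in KO viable libraries (log2 fold change -1.62, SE 0.23, adjusted p = 0.000958). Plxdc2, a receptor for pigment epithelium-derived factor, was at 1.9, 1.72 and 1.26 CPM in KO necrotic, against 5.93, 4.48 and 3.93 CPM in KO viable libraries (log2 fold change -1.55, SE 0.18, adjusted p = 0.00025). Pgf, placental growth factor, was at 0.514, 1.2 and 0.72 CPM in KO necrotic, against 2.49, 2.06 and 1.82 CPM in KO viable libraries (log2 fold change -1.42, SE 0.27, adjusted p = 0.00574). In each of these genes all KO necrotic libraries lay below all KO viable libraries, which was a condition of their choice, and the call held whichever library was left out. The same was true of Dmkn (-1.10), the transcriptional repressor gene Zbtb32 (-1.11), Cacng8 (-1.10), Fam83f (-0.95) and the RNA-binding protein gene Igf2bp2 (-0.94). The catenin gene Ctnnd2 (-1.13) lost its call without KO necrotic 1 (adjusted p = 0.0543), and the transcription factor gene Bcl11a (-0.98) without KO necrotic 2, KO necrotic 3 or KO viable 3 (adjusted p up to 0.0648).

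The machinery of bone resorption was higher as a group. Of 20 genes tested of mature osteoclasts and resorption, 16 were higher and 0 lower, with a median log2 fold change of 0.28 beside a median of -0.001 over all genes tested, where 4.0% were higher. Calcr, the calcitonin receptor, was at 139, 144 and 140.2 CPM in KO necrotic, against 96.8, 90.2 and 91.1 CPM in KO viable libraries (log2 fold change 0.61, SE 0.06, adjusted p = 9.89e-05). Ctsk, the collagen-degrading protease cathepsin K, was at 6757, 6388 and 6796 CPM in KO necrotic, against 4646, 4988 and 4821 CPM in KO viable libraries (log2 fold change 0.46, SE 0.05, adjusted p = 0.000167). For Acp5, which encodes tartrate-resistant acid phosphatase, the levels were 5296, 5224 and 5344 CPM in KO necrotic, against 4110, 4073 and 3910 CPM in KO viable libraries (log2 fold change 0.39, SE 0.04, adjusted p = 0.000104). None of these groups overlapped, and the SD within a group was a small part of the difference.

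The rise reached the parts of the cell that seal, acidify and clear the pit. Itgb3, the beta 3 chain of the integrin that anchors the sealing zone, was at 514, 506 and 505 CPM in KO necrotic, against 409, 422 and 428 CPM in KO viable libraries (log2 fold change 0.28, SE 0.06, adjusted p = 0.011). Car2, the carbonic anhydrase that supplies protons, was at 90.0, 82.9 and 97.8 CPM in KO necrotic, against 75.5, 62.2 and 64.5 CPM in KO viable libraries (log2 fold change 0.42, SE 0.08, adjusted p = 0.00508). Snx10 (0.34), a sorting nexin needed for the ruffled border, Rab38 (0.45), a small GTPase of lysosome-related organelles, the sodium-proton exchanger gene Slc9b2 (0.43) and the matrix metalloproteinase genes Mmp14 (0.26) and Mmp9 (0.22) were also higher. Ckb, a creatine kinase, was at 2051, 2189 and 2293 CPM in KO necrotic, against 1735, 1850 and 1809 CPM in KO viable libraries (0.28). The 4 members that did not pass were Itgav (0.16), Clcn7 (0.07), Plekhm1 (-0.05) and Rab7 (0.11). Itgav passed with the KO libraries alone (adjusted p = 0.02485). With each library left out in turn, 13 to 15 of the 20 were higher and 0 lower (14 without KO necrotic 2).

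**Figure D2:**
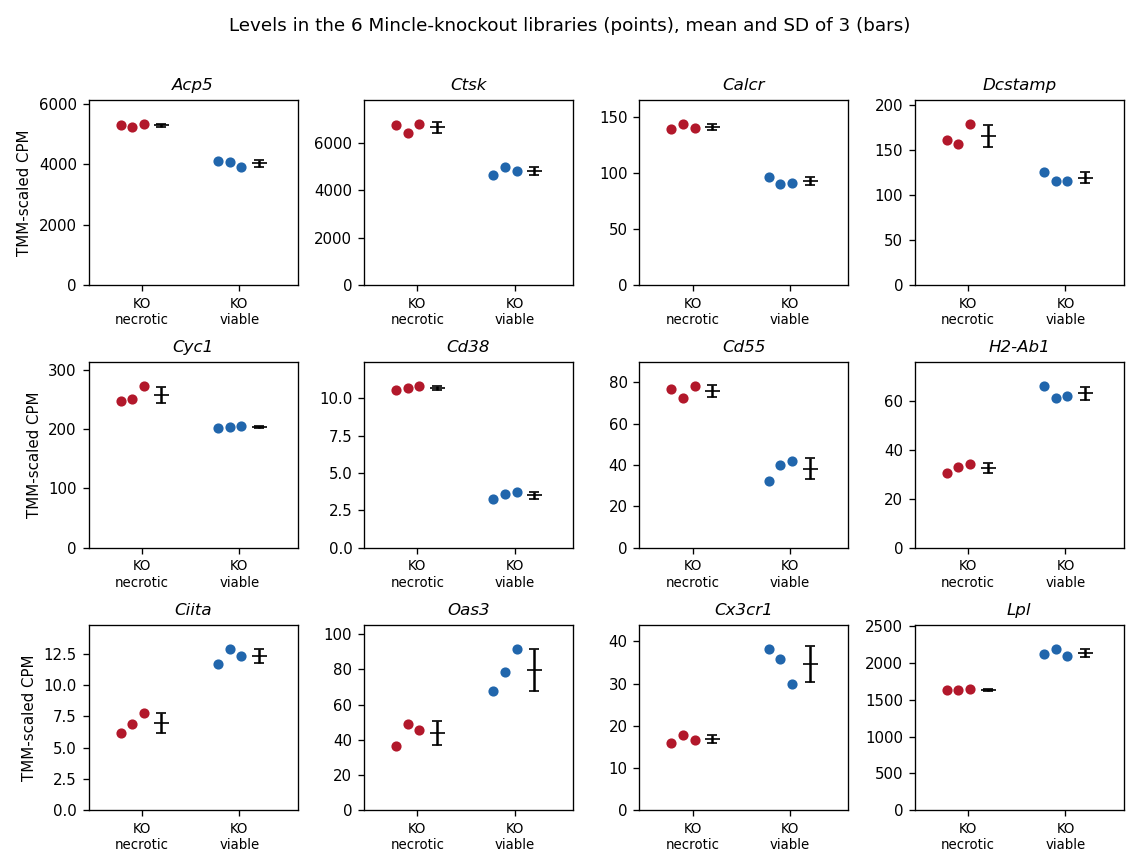
Levels of 12 genes in TMM-scaled CPM (y axes, each starting at 0) in the 3 KO necrotic (red) and 3 KO viable (blue) libraries, with the mean and SD of 3 as a black bar beside the points. In all 12 panels the groups do not overlap: Acp5, Ctsk, Calcr, Dcstamp, Cyc1, Cd38 and Cd55 are higher and H2-Ab1, Ciita, Oas3, Cx3cr1 and Lpl lower in KO necrotic libraries.

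The V-ATPase, the proton pump that osteoclasts insert into the membrane facing bone, was raised in 13 of 18 subunits tested and lowered in 0, with a median of 0.25. The subunit of the osteoclast pump Atp6v0d2 was at 853, 806 and 856 CPM in KO necrotic, against 664, 651 and 608 CPM in KO viable libraries (log2 fold change 0.39, SE 0.05, adjusted p = 0.000568). In contrast, the subunit Atp6v0d1, its widely expressed relative, did not pass (log2 fold change 0.05, SE 0.06, adjusted p = 0.638); the difference between the pair was not tested. Among the peripheral subunits Atp6v1d (0.36), Atp6v1g1 (0.29), Atp6v1c1 (0.27), Atp6v1f (0.27) and Atp6v1e1 (0.27) were higher and kept their calls whichever library was left out. The subunits with the highest CPM, Atp6v1b2 and Atp6v1a, both of the ATP-hydrolysing head, were higher with less certain calls. Atp6v1a was at 1450, 1393 and 1411 CPM in KO necrotic, against 1225, 1250 and 1181 CPM in KO viable libraries (0.22). Atp6v1b2 was at 1862, 1864 and 1897 CPM in KO necrotic, against 1681, 1596 and 1524 CPM in KO viable libraries (0.23). Atp6v1a lost its call without KO necrotic 1 or KO viable 3, and Atp6v1b2 without KO necrotic 3, KO viable 2 or KO viable 3 (adjusted p up to 0.0624 and 0.0683). The number of higher subunits was 8 without KO necrotic 3, 7 without KO viable 3 and 9 to 12 without the others (12 without KO necrotic 2). Cd63, a tetraspanin of late endosomes and lysosomes, was at 788, 781 and 800.4 CPM in KO necrotic, against 534, 611 and 632 CPM in KO viable libraries (log2 fold change 0.41, SE 0.08, adjusted p = 0.00745). In all, 5 of 26 lysosomal genes were higher and 0 lower, with a median of 0.07. The 5 became 2, 3 and 1 without KO necrotic 1, 2 and 3 and 4, 3 and 1 without KO viable 1, 2 and 3.

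The receptors and adaptors that start osteoclast differentiation changed little. Of 18 genes of RANK and M-CSF receptor signalling, 1 was higher and 1 lower, with a median of -0.002. The RANK gene Tnfrsf11a was at 201, 186 and 184 CPM in KO necrotic, against 185, 184 and 198 CPM in KO viable libraries (log2 fold change 0.01, SE 0.07, adjusted p = 0.947). The M-CSF receptor gene Csf1r was at 2348, 2502 and 2292 CPM in KO necrotic, against 2481, 2464 and 2343 CPM in KO viable libraries (log2 fold change -0.03, SE 0.05, adjusted p = 0.784). For both, the groups overlapped. Src, the tyrosine kinase of the ruffled border and sealing zone, was the higher member, at 174, 172 and 175 CPM in KO necrotic, against 154, 140.4 and 132 CPM in KO viable libraries (log2 fold change 0.29, SE 0.06, adjusted p = 0.00574). The lower member was Csf2rb (-0.18), the common beta chain of the IL-3 and GM-CSF receptors, whose call was kept without KO necrotic 2 or KO viable 3 and lost without any of the other 4 libraries (adjusted p up to 0.0783).

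Of 19 genes of the ITAM route that Mincle itself uses, 2 were higher and 3 lower, with a median of -0.04. With any 1 of the 6 KO libraries left out, 1 was higher and 2 lower. The adaptor genes Fcer1g (0.09, adjusted p = 0.449) and Tyrobp (0.17, adjusted p = 0.142), the kinase gene Syk (-0.08, adjusted p = 0.376) and Card9 (-0.18, adjusted p = 0.143) did not pass. With the KO libraries alone 3 of the list were higher and 4 lower, and Tyrobp and Card9 passed (adjusted p = 0.0199 and 0.0394). Card9 also passed in a fit that removes trends with transcript length and GC content (adjusted p = 0.0402). Oscar, a collagen receptor of osteoclasts coupled to the Fc receptor gamma chain, was at 221, 227 and 239.6 CPM in KO necrotic, against 184, 178 and 182 CPM in KO viable libraries (log2 fold change 0.34, SE 0.05, adjusted p = 0.00107). Prkcd (-0.27), a protein kinase C, and Plcg2 (-0.25), a phospholipase C, were lower. Among 7 lectin genes of the Dectin-2 cluster, in which Clec4e lies, Clec4a2 was higher, at 299, 299.6 and 294 CPM in KO necrotic, against 245, 248 and 248 CPM in KO viable libraries (log2 fold change 0.27, SE 0.04, adjusted p = 0.00276). The other 6 did not pass. None of the 4 Fc gamma receptor genes passed in either direction.

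Of 18 transcription factor genes of the osteoclast programme, 4 were higher and 0 lower, with a median of 0.11. Jdp2, a Jun dimerization protein needed for osteoclast differentiation in mice, was at 367, 349 and 373 CPM in KO necrotic, against 261, 278 and 288 CPM in KO viable libraries (log2 fold change 0.40, SE 0.07, adjusted p = 0.00236). Nfatc1 was at 357, 349 and 344 CPM in KO necrotic, against 315, 296 and 290.4 CPM in KO viable libraries, groups that do not overlap (log2 fold change 0.22, SE 0.05, adjusted p = 0.0211). The call of Nfatc1 was kept without KO viable 1 and lost without any of the other 5 libraries (adjusted p up to 0.0944). That of Fosl2 (0.21) was kept without KO viable 2 only and that of Esrra (0.21) without KO necrotic 1 only (adjusted p up to 0.11 and 0.104). The list held 2, 1 and 1 higher members without KO necrotic 1, 2 and 3 and 2, 2 and 1 without KO viable 1, 2 and 3. Of 9 repressors of the programme, Bcl6 was lower, at 22.2, 21.1 and 21.4 CPM in KO necrotic, against 30.9, 27.6 and 25.9 CPM in KO viable libraries (log2 fold change -0.38, SE 0.08, adjusted p = 0.00763). Rbpj was lower as well (-0.24), a call kept without KO viable 2 only (adjusted p up to 0.138), while Irf8 (-0.15) did not pass. Irf8 passed with the KO libraries alone (adjusted p = 0.04335).

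Fusion genes moved in both directions. Dcstamp and Ocstamp, the transmembrane proteins required for precursors to fuse, were the leading members. Dcstamp was at 160.5, 156 and 179 CPM in KO necrotic, against 126, 116 and 116 CPM in KO viable libraries (log2 fold change 0.47, SE 0.07, adjusted p = 0.00113). Ocstamp was at 160.0, 165 and 172 CPM in KO necrotic, against 127, 130.0 and 125 CPM in KO viable libraries (log2 fold change 0.38, SE 0.05, adjusted p = 0.000568). Adam8, a membrane protease that promotes osteoclast formation, went the other way, with 309, 314 and 316 CPM in KO necrotic, against 403, 375 and 386 CPM in KO viable libraries (log2 fold change -0.31, SE 0.06, adjusted p = 0.00461). In all, 3 of 13 fusion genes were higher and 1 lower, with a median of -0.03, and 2 or 3 were higher with each library left out in turn.

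Nuclear genes of the respiratory chain were higher by small amounts across all complexes. Of 37 complex I genes tested 22 were higher and 0 lower (median 0.28), and of 40 nuclear genes of complexes II to V, 28 were higher and 0 lower (median 0.28). Cyc1, cytochrome c1 of complex III, was at 247, 250.1 and 272 CPM in KO necrotic, against 202, 204 and 204 CPM in KO viable libraries (log2 fold change 0.33, SE 0.05, adjusted p = 0.000648). Ndufa9, an accessory subunit of complex I, was at 103, 106 and 108 CPM in KO necrotic, against 84.8, 86 and 89.8 CPM in KO viable libraries (log2 fold change 0.28, SE 0.04, adjusted p = 0.00196). Sdhb, the iron-sulfur subunit of complex II, was at 235, 246 and 249 CPM in KO necrotic, against 206, 197 and 196 CPM in KO viable libraries (log2 fold change 0.28, SE 0.05, adjusted p = 0.00325). In all 3 genes the groups do not overlap, and their calls held whichever library was left out.

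Cox7a2 of complex IV (0.36) and the ATP synthase genes Atp5g1 (0.36), Atp5g3 (0.32) and Atp5b (0.25) were higher too. Atp5b, the catalytic beta subunit, was at 1813, 1859 and 1915 CPM in KO necrotic, against 1571, 1579 and 1558 CPM in KO viable libraries. The carriers and enzymes that feed the chain followed: of 28 genes of pyruvate entry and the TCA cycle, 15 were higher and 0 lower (median 0.21). Pdhb, a subunit of pyruvate dehydrogenase, was at 232, 240.1 and 244 CPM in KO necrotic, against 189, 187 and 194 CPM in KO viable libraries (log2 fold change 0.33, SE 0.04, adjusted p = 0.000487). The mitochondrial pyruvate carrier gene Mpc2 was at 86.7, 84.9 and 87.7 CPM in KO necrotic, against 60.2, 71.1 and 67.1 CPM in KO viable libraries (log2 fold change 0.39, SE 0.07, adjusted p = 0.00558). Of 77 mitochondrial ribosomal protein genes 11 were higher and 0 lower (median 0.17), and of 22 import genes 6 were higher and 0 lower (median 0.15). Glycolysis genes showed no such shift, with 0 of 21 higher, 1 lower and a median of 0.01. Small positive values were not limited to mitochondrial genes. Of 81 cytosolic ribosomal protein genes 73 were positive (median 0.10, 1 higher, 0 lower). With the KO libraries alone 22 of them were higher and 1 lower. Of 38 proteasome genes 35 were positive (median 0.08, 2 higher, 0 lower). Of all 14153 genes 7025 were positive.

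All 14 tested members of the list of mitochondrially encoded genes had positive values, with a median of 0.34, and 1 passed the test. With the KO libraries alone 4 of the list passed, and 9 did without the filter on low counts. The fit without the filter gave each gene the spread of the trend and not its own, so the 9 are less certain. Of 15 genes tested on the mitochondrial chromosome 2 were higher. The tRNA gene mt-Tp, outside the list, kept its call whichever library was left out (log2 fold change 0.267 to 0.373 in those fits). The list member that passed was mt-Nd4, at 1751, 1689 and 1752 CPM in KO necrotic, against 1292, 1474 and 1485 CPM in KO viable libraries (log2 fold change 0.29, SE 0.07, adjusted p = 0.0216). Its call was lost without KO necrotic 1, KO necrotic 3 or KO viable 1 (adjusted p up to 0.0924) and in a fit that removes trends with transcript length and GC content (log2 fold change 0.17, adjusted p = 0.0661). The mitochondrial share of all counts was 2.95%, 2.72% and 2.76% in KO necrotic and 2.41%, 2.72% and 2.66% in KO viable libraries, ranges that touch at 2.72%. On the TMM scale the list summed to 27490 to 29570 CPM in KO necrotic and 23620 to 26880 CPM in KO viable libraries. Those ranges do not overlap. The counts of higher nuclear genes depended on single libraries. For complex I they were 11, 13 and 6 without KO necrotic 1, 2 and 3 and 12, 12 and 13 without KO viable 1, 2 and 3. For complexes II to V they were 16, 19 and 13 without KO necrotic 1, 2 and 3 and 16, 19 and 16 without KO viable 1, 2 and 3. For the TCA cycle list they fell to 5 without KO necrotic 3 and 8 without KO viable 3, against 12 without KO necrotic 2. All 3 lists had their lowest count without KO necrotic 3. Mitochondrial ribosomal protein genes numbered 2, 6 and 2 higher without KO necrotic 1, 2 and 3 and 3, 4 and 3 without KO viable 1, 2 and 3. Import genes numbered 3 higher without KO necrotic 1 or 3 or KO viable 2 or 3.

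Transcript length moved with the response and stands beside these counts. The median exon length was 3413 bases for higher genes, 5544 bases for lower genes and 4010 bases for genes that did not pass. Across 14110 genes length and log2 fold change had a Spearman correlation of -0.20, a description over genes that share the same libraries. With length and GC trends removed, 19 of 37 complex I genes were higher with a median of 0.22 (0.28 without the correction), and 25 of 40 genes of complexes II to V were higher with a median of 0.20. Of the mitochondrial ribosomal protein genes 7 were higher in that fit, with a median of 0.12, while the KO libraries alone gave 27. The mature osteoclast list had 16 higher members with the trends removed, with a median of 0.30.

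Interferon-stimulated genes were lower as a group. Type I interferon signals through STAT proteins and IRF9 to an element in the promoters of antiviral genes. As examples, windows of Stat2, Oas3 and Ifit3 are given (RefSeq, GRCm38.p6, sense strand of the gene). Each runs from 250 bases before to 50 bases after the start site. Matches to the interferon-stimulated response element GAAANNGAAA, searched on both strands, are in capitals. They were the members past the threshold with the smallest p whose window held the element. Their matches were therefore fixed by the choice.
Stat2 (chr10:128270248-128270547, plus strand): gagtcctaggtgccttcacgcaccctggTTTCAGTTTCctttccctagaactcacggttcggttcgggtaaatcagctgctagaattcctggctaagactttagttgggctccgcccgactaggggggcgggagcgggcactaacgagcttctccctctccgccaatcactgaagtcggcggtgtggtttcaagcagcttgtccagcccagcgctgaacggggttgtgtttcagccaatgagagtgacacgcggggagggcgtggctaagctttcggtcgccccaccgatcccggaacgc
Oas3 (chr5:120777610-120777909, minus strand): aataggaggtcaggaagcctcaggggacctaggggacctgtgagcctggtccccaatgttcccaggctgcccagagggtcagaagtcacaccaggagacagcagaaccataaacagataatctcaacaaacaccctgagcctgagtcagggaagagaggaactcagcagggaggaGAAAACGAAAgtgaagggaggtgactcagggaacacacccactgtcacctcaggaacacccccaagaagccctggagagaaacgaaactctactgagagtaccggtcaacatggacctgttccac
Ifit3 (chr19:34583279-34583578, plus strand): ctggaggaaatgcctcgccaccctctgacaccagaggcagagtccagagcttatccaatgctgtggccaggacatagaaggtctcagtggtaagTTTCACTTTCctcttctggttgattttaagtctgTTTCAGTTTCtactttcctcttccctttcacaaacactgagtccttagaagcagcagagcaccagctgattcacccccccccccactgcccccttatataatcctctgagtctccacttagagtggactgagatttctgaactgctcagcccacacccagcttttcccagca
The match in Stat2 and both matches in Ifit3 read as the complement, TTTC first, and that in Oas3 reads forward. Of 35 list members 25 were in the promoter table, with 28 windows, and 15 of these windows (53.6%) held the element, against 1131 of all 32841 windows (3.44%). Among the members past the threshold 7 of 17 windows held it (41.2%). The list was chosen as genes that answer to interferon, so a share above that of all windows follows from the choice. A match is a description of these letters in this window.

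Of 35 interferon-stimulated genes tested 21 were lower and 0 higher, with a median log2 fold change of -0.52, and all 35 had a negative value. Oas3, an oligoadenylate synthetase that detects viral RNA, was at 36.4, 49.2 and 45.7 CPM in KO necrotic, against 67.8, 78.6 and 91.7 CPM in KO viable libraries (log2 fold change -0.86, SE 0.14, adjusted p = 0.00287). Stat2 was at 49.5, 56.9 and 48.9 CPM in KO necrotic, against 67.3, 68 and 74.3 CPM in KO viable libraries (log2 fold change -0.43, SE 0.07, adjusted p = 0.00276). The interferon-induced GTPase gene Mx1 was at 12.7, 15.7 and 13.3 CPM in KO necrotic, against 24.1, 21 and 30.0 CPM in KO viable libraries (log2 fold change -0.87, SE 0.16, adjusted p = 0.00438). Ifit2 (-0.86) and Oas2 (-0.58) completed the 5 members whose calls held whichever library was left out. Ifit3 was at 11.7, 14.6 and 12.4 CPM in KO necrotic, against 19.7, 20.9 and 28.1 CPM in KO viable libraries (log2 fold change -0.84, SE 0.17, adjusted p = 0.00952). It lost its call without KO necrotic 1, KO necrotic 3 or KO viable 3 (adjusted p up to 0.0574).

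The spread of this list within groups was wide. The median over the list of log2(CPM + 0.5), set against the mean of the KO viable libraries, was -0.63, -0.35 and -0.47 in KO necrotic 1, 2 and 3 and -0.10, -0.03 and 0.13 in KO viable 1, 2 and 3. KO necrotic 1 and KO viable 3 were therefore the extremes. The number of lower members was 6 without KO necrotic 1, 6 without KO necrotic 3, 6 without KO viable 3, 13 without KO viable 2, 18 without KO necrotic 2 and 20 without KO viable 1, while the median stayed between -0.58 and -0.39. With only the 6 KO libraries in the fit, 28 of the list were lower. Ifi44 (1.26, 1.3 and 1.17 CPM in KO necrotic and 1.82, 1.94 and 3.73 CPM in KO viable libraries, -1.03) had a KO viable 3 value well above the rest. Its call was lost without KO necrotic 1, 2 or 3 or KO viable 3 (adjusted p up to 0.212).

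Of 15 interferon-inducible GTPase genes 6 were lower and 0 higher, with a median of -0.49, and 0, 2 and 1 were lower without KO necrotic 1, 2 and 3 and 1, 0 and 0 without KO viable 1, 2 and 3. The receptor genes Ifnar1 (-0.01, adjusted p = 0.905), Ifnar2 (-0.04, adjusted p = 0.723), Ifngr1 (0.04, adjusted p = 0.65) and Ifngr2 (-0.02, adjusted p = 0.833) did not pass. Of 24 receptor, STAT and IRF genes 5 were lower and 0 higher. Besides Stat2 these were Irf7 (-0.66), Irf9 (-0.26), Irf4 (-0.47) and Stat6 (-0.18), each of which lost its call in at least 4 of the 6 fits without a library (adjusted p up to 0.0995, 0.102, 0.125 and 0.0746). Irf7 kept it without KO necrotic 2 or KO viable 1, Irf9 without KO necrotic 2, Irf4 without KO viable 2 and Stat6 without KO necrotic 3 or KO viable 1. The list held 1, 3 and 2 lower members without KO necrotic 1, 2 and 3 and 3, 2 and 1 without KO viable 1, 2 and 3. Tlr9, the endosomal receptor for unmethylated DNA, was lower at 16.6, 18.4 and 17.5 CPM in KO necrotic, against 26.4, 24.6 and 23.6 CPM in KO viable libraries (log2 fold change -0.51, SE 0.10, adjusted p = 0.00785). None of the other 18 Toll-like receptor and adaptor genes passed.

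**Figure D3:**
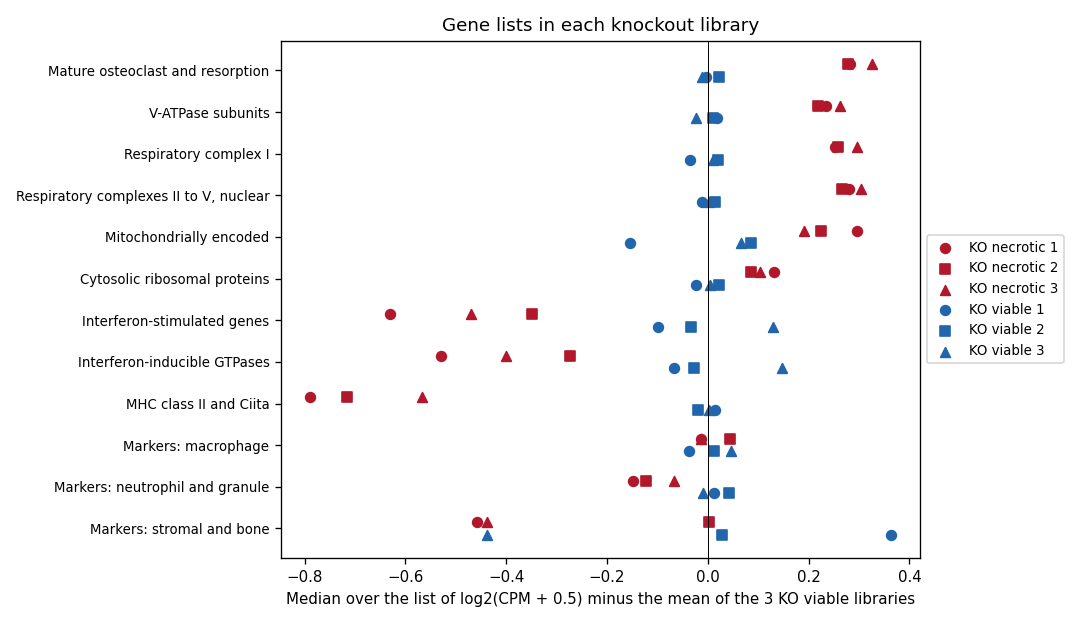
Median over each of 12 gene lists of log2(CPM + 0.5) minus the mean of the KO viable libraries (x axis), for each KO necrotic (red) and KO viable (blue) library, with circles, squares and triangles for replicates 1, 2 and 3. The libraries of the resorption, V-ATPase and respiratory lists lie close together within a group, those of the interferon-stimulated list spread from -0.63 to -0.35 in KO necrotic cultures, and those of the stromal list overlap between groups.

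MHC class II genes, which present peptides to helper T cells, fell more than any other list of at least 10 genes tested here, by median (-0.82). Their transcription depends on the coactivator CIITA, which joins factors bound to the X and Y boxes of the promoters. The windows of H2-Aa and H2-Eb1 are shown with the Y box TGATTGG, searched on both strands, in capitals (RefSeq, GRCm38.p6, sense strand of the gene).
H2-Aa (chr17:34287774-34288073, minus strand): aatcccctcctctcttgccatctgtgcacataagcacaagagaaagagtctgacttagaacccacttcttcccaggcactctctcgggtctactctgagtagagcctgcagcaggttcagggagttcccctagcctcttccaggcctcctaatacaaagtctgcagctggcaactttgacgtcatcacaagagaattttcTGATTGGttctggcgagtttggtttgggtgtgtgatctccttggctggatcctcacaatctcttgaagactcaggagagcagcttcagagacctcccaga
H2-Eb1 (chr17:34305617-34305916, plus strand): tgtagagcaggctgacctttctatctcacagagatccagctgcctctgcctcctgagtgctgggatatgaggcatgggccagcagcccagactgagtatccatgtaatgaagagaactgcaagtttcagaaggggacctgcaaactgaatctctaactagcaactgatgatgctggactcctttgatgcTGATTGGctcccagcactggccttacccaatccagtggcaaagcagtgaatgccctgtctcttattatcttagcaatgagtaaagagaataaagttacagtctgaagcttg
Of 10 list members 7 were in the promoter table with 8 windows, 6 of which held the Y box (75%), against 2568 of all 32841 windows (7.82%). Among the members past the threshold 3 of 5 windows held it (60%). The list was chosen as genes controlled in this way, so a high share follows from the choice and is no result of the response.

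Of 10 genes tested 7 were lower and 0 higher. Ciita was at 6.21, 6.92 and 7.78 CPM in KO necrotic, against 11.7, 12.9 and 12.3 CPM in KO viable libraries (log2 fold change -0.82, SE 0.11, adjusted p = 0.000535). H2-Ab1, the beta chain of I-A, was at 30.5, 33.1 and 34.2 CPM in KO necrotic, against 66.1, 61.3 and 62 CPM in KO viable libraries (log2 fold change -0.96, SE 0.08, adjusted p = 4.09e-05). H2-Aa, its alpha chain, was at 38.3, 34 and 37.2 CPM in KO necrotic, against 73.1, 64.7 and 70.3 CPM in KO viable libraries (log2 fold change -0.93, SE 0.09, adjusted p = 7.36e-05). In each of them the highest KO necrotic library lay far below the lowest KO viable library.

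H2-Eb1 was at 29.1, 33 and 32.4 CPM in KO necrotic, against 59.7, 55.8 and 54.9 CPM in KO viable libraries (log2 fold change -0.85, SE 0.09, adjusted p = 0.000101). The invariant chain gene Cd74 was at 105, 102 and 103 CPM in KO necrotic, against 204, 163 and 183 CPM in KO viable libraries (log2 fold change -0.83, SE 0.09, adjusted p = 0.000105). These calls and those of Ciita, H2-Ab1 and H2-Aa held whichever library was left out and against a change of 1.2-fold. Of the genes that load or edit peptides, H2-DMa (-0.32) was lower but lost its call without KO necrotic 1 or KO viable 3 (adjusted p up to 0.0622), and H2-Ob (-0.88) lost it whichever library was left out (adjusted p up to 0.14). H2-DMb1 (0.02, adjusted p = 0.905) did not pass. The list held 5 or 6 lower members in the fits without a library (6 without KO necrotic 2). Among MHC class I and antigen processing genes 1 of 18 was lower and 0 higher, around a median of -0.05.

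Among the receptors for chemokines and cytokines that passed, most were lower. Cx3cr1, the fractalkine receptor of monocytes and macrophages, was at 16, 17.8 and 16.7 CPM in KO necrotic, against 38.2, 35.8 and 29.8 CPM in KO viable libraries (log2 fold change -1.04, SE 0.11, adjusted p = 9.89e-05). Ccr2, the receptor that draws monocytes from the marrow, was at 244, 253 and 267 CPM in KO necrotic, against 364, 345 and 359 CPM in KO viable libraries (log2 fold change -0.48, SE 0.07, adjusted p = 0.000859). Ccr1 went the other way, with 203, 184 and 210.3 CPM in KO necrotic, against 154, 147 and 149.5 CPM in KO viable libraries (log2 fold change 0.41, SE 0.06, adjusted p = 0.00113). Of 27 chemokine and receptor genes 4 were lower and 1 higher.

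Of 24 interleukin and growth factor receptor genes 7 were lower and 1 higher, with a median of -0.09. Tnfrsf1b, the second receptor for tumour necrosis factor, was at 276, 298 and 251 CPM in KO necrotic, against 366, 374 and 346 CPM in KO viable libraries (log2 fold change -0.40, SE 0.07, adjusted p = 0.00236). Il10ra, the ligand-binding chain of the IL-10 receptor, was at 121, 131 and 125 CPM in KO necrotic, against 151, 154 and 148 CPM in KO viable libraries (log2 fold change -0.26, SE 0.05, adjusted p = 0.00651). Il6ra was lower as well (-0.24). For all 3 the groups do not overlap. Lower members numbered 5, 6 and 3 without KO necrotic 1, 2 and 3 and 4, 4 and 5 without KO viable 1, 2 and 3. The list held 9 members with an unadjusted p under 0.05 for a difference between the KO and WT responses, against 1064 of 14153 genes in all, and none of them passed after adjustment.

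Genes of alternatively activated macrophages were higher in part. Chil3, a chitinase-like lectin, was at 460.3, 474 and 498 CPM in KO necrotic, against 269, 288 and 300.0 CPM in KO viable libraries (log2 fold change 0.74, SE 0.08, adjusted p = 0.000104). Cbr2, a carbonyl reductase, was at 289, 283 and 266 CPM in KO necrotic, against 170.5, 161 and 171 CPM in KO viable libraries (log2 fold change 0.74, SE 0.07, adjusted p = 9.89e-05). Cd163, the scavenger receptor for haemoglobin-haptoglobin complexes, was at 38.2, 32.5 and 34.3 CPM in KO necrotic, against 21, 21.1 and 22.5 CPM in KO viable libraries (log2 fold change 0.70, SE 0.08, adjusted p = 0.000191). Folr2, a folate receptor of tissue macrophages, was higher too (0.42), whereas Egr2 (-0.89) and Klf4 (-0.52), transcription factors tied to IL-4 responses, were lower, so 4 of 15 genes of this list were higher and 2 lower. Arg1 (2.64 ± 1.48 CPM in KO necrotic and 1.25 ± 0.336 CPM in KO viable libraries, SD, n = 3 each) did not pass (adjusted p = 0.105). Without KO necrotic 2 Arg1 was called (log2 fold change 1.45, adjusted p = 0.00884), and DESeq2 called it as well (adjusted p = 0.0403).

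Of 18 scavenger and dead-cell clearance receptor genes 4 were higher and 1 lower, with a median of 0.10. The higher count was 2, 1 and 1 without KO necrotic 1, 2 and 3 and 1, 1 and 1 without KO viable 1, 2 and 3. The 3 chains of C1q, which tags dying cells for uptake, were higher. C1qa was at 499, 533 and 514 CPM in KO necrotic, against 357, 370.5 and 399 CPM in KO viable libraries (log2 fold change 0.46, SE 0.08, adjusted p = 0.00382). C1qc was at 734, 744 and 721 CPM in KO necrotic, against 516, 544 and 559 CPM in KO viable libraries (log2 fold change 0.44, SE 0.08, adjusted p = 0.00436). C1qb (0.34) lost its call without KO necrotic 1 or KO viable 1 (adjusted p up to 0.0583). The central component C3 was lower (-0.32), a call lost without KO necrotic 1 or KO viable 3 (adjusted p up to 0.0617), and with Cd55 the complement list came to 4 of 20 higher and 1 lower.

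Targets of the glucocorticoid receptor included Fkbp5, the immunophilin that restrains the receptor, at 63.5, 65.6 and 72.2 CPM in KO necrotic, against 49.6, 49.2 and 49.5 CPM in KO viable libraries (log2 fold change 0.44, SE 0.06, adjusted p = 0.0008). Tsc22d3, which encodes the leucine zipper GILZ, was at 183, 176 and 175 CPM in KO necrotic, against 139, 146 and 138 CPM in KO viable libraries (log2 fold change 0.33, SE 0.07, adjusted p = 0.00955). The metallothionein gene Mt1 (0.30) and Cd163, which is also a target, were higher, and Sgk1, a kinase gene of the same list, was lower (-0.40). In all 5 of 17 members were higher and 1 lower. The median was 0.21, but the signs were split, with 9 members positive and 8 negative. The receptor gene Nr3c1 did not pass (-0.07, adjusted p = 0.524).

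Lipid handling genes were mostly lower among those that passed, 6 of 23 against 1 higher, although the list median was -0.07. Lpl, the lipase that releases fatty acids from lipoproteins, was at 1626, 1626 and 1650 CPM in KO necrotic, against 2125, 2191 and 2090 CPM in KO viable libraries (log2 fold change -0.39, SE 0.04, adjusted p = 0.000104). Pparg, the nuclear receptor that controls lipid uptake, was at 10.2, 9.88 and 8.68 CPM in KO necrotic, against 12.2, 14.7 and 13.2 CPM in KO viable libraries (log2 fold change -0.47, SE 0.09, adjusted p = 0.0066). The lipid droplet gene Plin2 (-0.22) and the phospholipid transfer protein gene Pltp (-0.27) were lower.

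The 10 genes with the largest falls in CPM were chosen by that difference alone and form no list. They included Actb, whereas of 27 podosome and actin genes tested as a list 4 were higher and 0 lower, with a median of 0.05. Ahnak, a giant scaffold protein gene, was at 1050, 1058 and 1016 CPM in KO necrotic, against 1436, 1404 and 1430 CPM in KO viable libraries (log2 fold change -0.45, SE 0.05, adjusted p = 0.000319) and kept its call whichever library was left out. Actb, cytoplasmic beta-actin, was at 4534, 4284 and 4317 CPM in KO necrotic, against 5008, 4848 and 5209 CPM in KO viable libraries (log2 fold change -0.20, SE 0.05, adjusted p = 0.0168). The call of Actb was lost without KO necrotic 2, KO necrotic 3 or KO viable 3 (adjusted p up to 0.0883). Flna, filamin A (-0.25), was lower as well but kept its call without KO necrotic 2 only (adjusted p up to 0.0873). Plec, plectin (-0.34), lost it without KO necrotic 1, KO necrotic 3 or KO viable 1, and the scaffold gene Iqgap1 (-0.23) without KO necrotic 3 or KO viable 2 (adjusted p up to 0.0756 and 0.0594). The ubiquitin ligase gene Rnf213 (-0.59) kept it without KO necrotic 2 or KO viable 1, Rassf4 (-0.26) without KO viable 3 only and BC005537 (-0.17) without KO necrotic 2 only, with adjusted p up to 0.0853, 0.124 and 0.11 without other libraries.

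Signals by which osteoclasts address osteoblasts and vessels gave 3 higher and 3 lower genes of 22, with a median of -0.05. Without KO viable 3 none was higher, against 2 or 3 without another library. Besides Plxdc2, Sema4a was lower, at 64.7, 66.1 and 71.3 CPM in KO necrotic, against 89.3, 77.7 and 91.5 CPM in KO viable libraries (log2 fold change -0.36, SE 0.06, adjusted p = 0.00276). Pdgfb, a growth factor of osteoclast precursors that acts on vessels, was at 124, 128 and 129.8 CPM in KO necrotic, against 111, 114 and 109 CPM in KO viable libraries (log2 fold change 0.19, SE 0.04, adjusted p = 0.0131). This call was lost without KO necrotic 3 or KO viable 3 (adjusted p up to 0.0738). Sema7a (0.36), a membrane-anchored semaphorin, was higher and lost its call without KO viable 3 (adjusted p = 0.0523). Sema4d (-0.12, adjusted p = 0.233), Sphk1 (0.43, adjusted p = 0.06) and Cthrc1 (0.35, adjusted p = 0.0823) did not pass. Sphk1 was called by DESeq2 (adjusted p = 0.0368), and both Sphk1 and Cthrc1 were called with the KO libraries alone (adjusted p = 0.0251 and 0.0372).

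**Figure D4:**
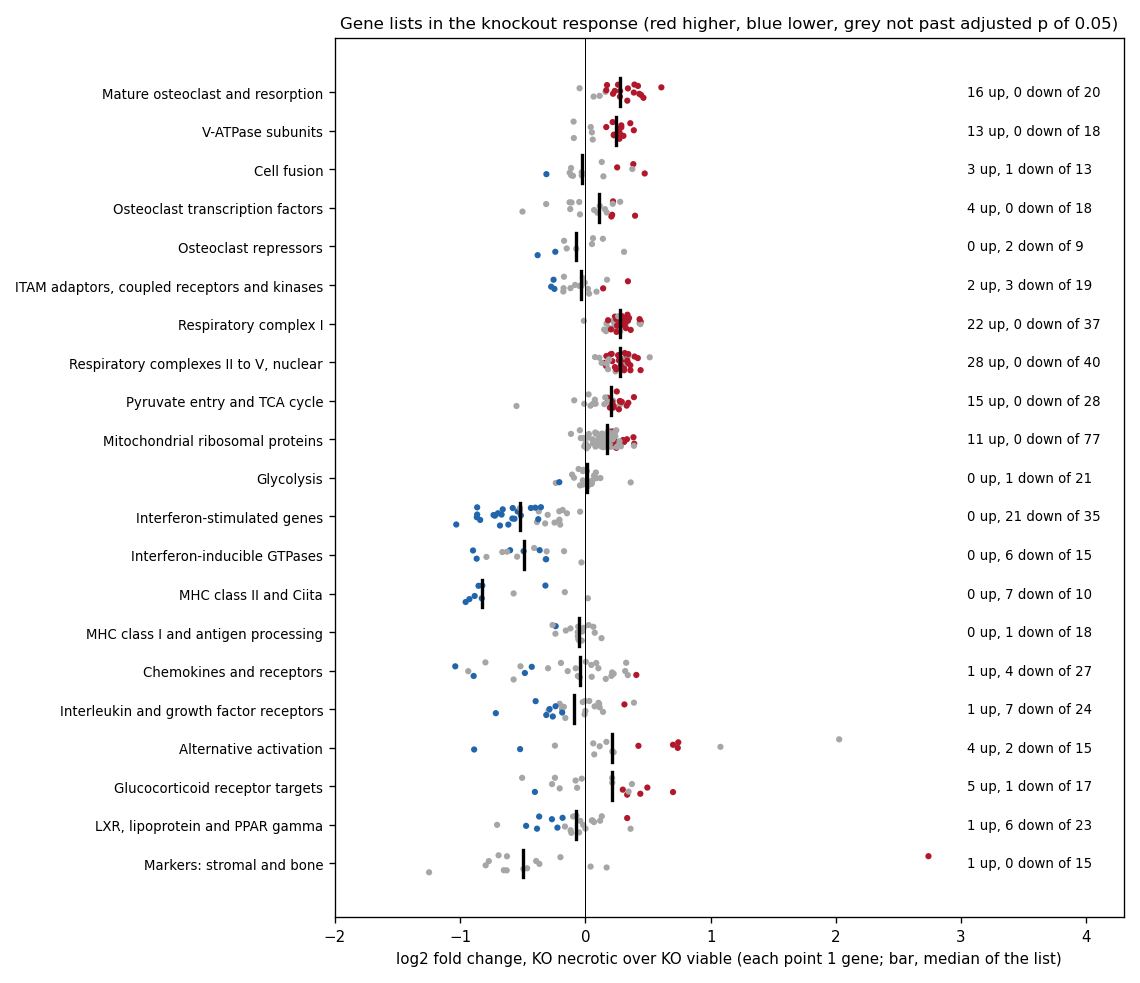
Log2 fold changes of KO necrotic over KO viable cultures (x axis) for every tested member of 21 gene lists (rows), with red for higher, blue for lower and grey for genes not past an adjusted p of 0.05, a black bar at each list's median, and the counts at the right. Resorption, V-ATPase and respiratory lists lie to the right of 0 and interferon-stimulated and MHC class II lists to the left, while the osteoclast transcription factor, repressor and fusion lists straddle it.

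Markers of other cells moved with the groups, and their part in the results was not tested. The summed level of 17 macrophage markers was 25710 to 26780 CPM in KO necrotic and 24960 to 26140 CPM in KO viable libraries, ranges that overlap. Of these 17 markers 6 were higher and 1 lower (41.2% called, against 7.43% of all genes), with a median of 0. Higher members numbered 3, 4 and 3 without KO necrotic 1, 2 and 3 and 3, 3 and 4 without KO viable 1, 2 and 3. Erythroid and platelet markers summed to 422 to 456 CPM in KO necrotic and 346 to 367 CPM in KO viable libraries, ranges that do not overlap, with a median of 0.24 and 0 of 9 past the threshold. Classical dendritic cell markers summed to 1624 to 1746 CPM in KO necrotic and 1798 to 1893 CPM in KO viable libraries. Lymphoid markers summed to 71.1 to 74.3 CPM in KO necrotic and 99.7 to 117 CPM in KO viable libraries. The dendritic and lymphoid ranges are therefore lower in KO necrotic libraries, as the MHC class II sum is (259 to 266 CPM in KO necrotic and 415 to 470 CPM in KO viable libraries). Of 12 classical dendritic cell markers tested 2 were lower, Cd209a and Kmo (-0.52, lost without KO necrotic 2, KO necrotic 3 or KO viable 1, adjusted p up to 0.08). The other 10 did not pass, and which members carry the fall in the sum was not examined. The lineage-defining genes Flt3 (-0.02, adjusted p = 0.948) and Zbtb46 (-0.18, adjusted p = 0.66) did not pass. Ighm, the immunoglobulin heavy chain mu gene, was at 36.9, 39.1 and 38.7 CPM in KO necrotic, against 67.6, 54.9 and 56.9 CPM in KO viable libraries (log2 fold change -0.65, SE 0.11, adjusted p = 0.00253). Il7r was lower too (-0.65), so 2 of 10 lymphoid markers passed. Ighm alone made up much of the lymphoid sum in both groups. Plasmacytoid dendritic cell markers summed to 319.2 to 351.5 CPM in KO necrotic and 342.4 to 378.2 CPM in KO viable libraries, ranges that overlap. Of 7 tested 2 were lower and 0 higher. Siglech (-1.01), 1 of these, kept its call without KO necrotic 3 only (adjusted p up to 0.152 without another).

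Of 17 neutrophil and granule markers 4 were lower, 1 higher and 12 not past the threshold, with a median of -0.07. Ngp, neutrophilic granule protein, was at 217, 209 and 225 CPM in KO necrotic, against 284, 279.5 and 280.5 CPM in KO viable libraries (log2 fold change -0.37, SE 0.05, adjusted p = 0.000535). Camp (-0.52) and Ltf (-0.41), which encode cathelicidin and lactoferrin, were lower as well. The summed level of these markers was higher in KO necrotic (6981 to 7223 CPM) than in KO viable libraries (6394 to 6485 CPM). Mmp9, which osteoclasts also express, was at 5745, 5615 and 5815 CPM of it in KO necrotic and 5006, 4835 and 4894 CPM in KO viable libraries. Stromal and bone markers summed to 78.1 to 102 CPM in KO necrotic and 76.5 to 130 CPM in KO viable libraries, ranges that overlap, with Lum at 0 in all 6 libraries. Of 15 tested 1 was higher and 0 lower, but 12 values were negative and 3 positive, with a median of -0.495. That median ran from -1.001 to -0.261 with each library left out in turn. Dcn, the proteoglycan decorin, was the stromal gene that passed, with 0.554, 0.468 and 0.675 CPM in KO necrotic, against 0.0957, 0.0605 and 0.081 CPM in KO viable libraries (log2 fold change 2.74, SE 0.54, adjusted p = 0.00684). The KO viable values of Dcn lie below the level that 3 counts give, so its fold change is uncertain.

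The KO response was set against that of WT cultures to find genes that respond differently without Mincle, and none passed. At an adjusted p under 0.05, 0 of 14153 genes (0%) differed between the responses in edgeR's test, in DESeq2 and in limma voom. The smallest adjusted p in edgeR was 0.571, while 1064 genes had an unadjusted p under 0.05. Of the 1052 genes that changed in KO cultures, 1011 (96.1%) had the same sign in WT. Of these, 504 passed in both in the same direction, 47.9% of the KO genes and 38.2% of the 1318 WT genes. Of all 14153 genes, 681 were higher and 637 lower in WT. The share with the same sign over all genes was not computed. The genotypes share no library, but the 1052 genes were picked on their KO values, and 0 genes passed in opposite directions.

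**Figure D5:**
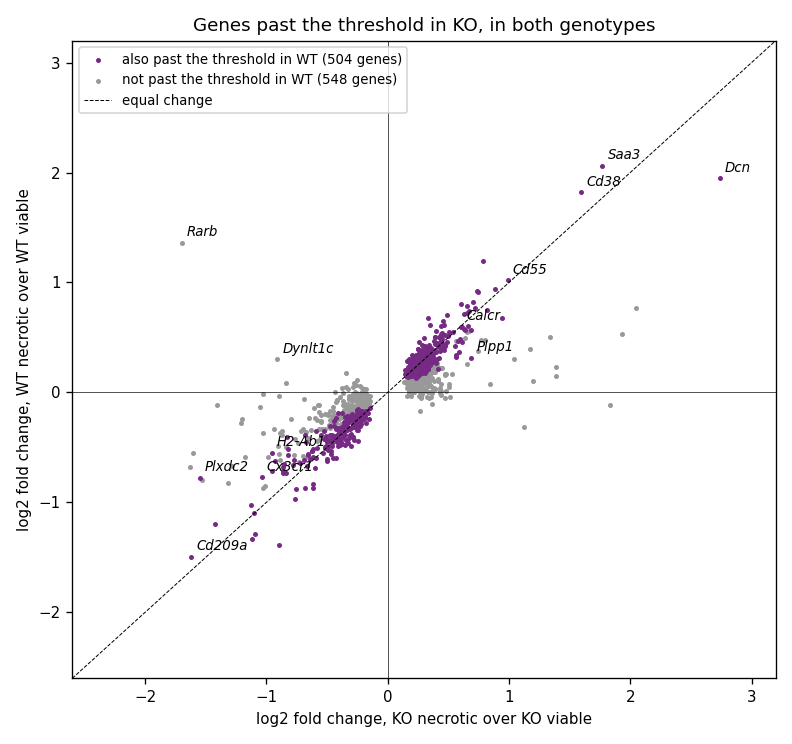
Log2 fold change of necrotic over viable supernatant in WT cultures (y axis) against that in KO cultures (x axis) for the 1052 genes past the threshold in KO, with 504 genes that also pass in WT in purple and the other 548 in grey; the dashed line marks equal change. Most points lie in the quadrants of equal sign, and Rarb and Dynlt1c, lower in KO and positive in WT, lie apart.

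List medians differed between the genotypes in both directions, without a call for any member's difference. Complex I had a median log2 fold change of 0.28 in KO and 0.13 in WT, with 22 and 9 genes higher, and MHC class II one of -0.82 in KO and -0.46 in WT, with 7 and 5 genes lower. Alternative activation had a median of 0.21 in KO and 0.32 in WT, with 4 and 9 genes higher, and the 4 Fc gamma receptor genes one of -0.03 in KO and 0.24 in WT. Cell cycle genes had a median of -0.07 in KO and -0.15 in WT, with 2 and 13 genes lower, and macrophage markers one of 0 in KO and 0.18 in WT. For H2-Ab1 the log2 fold change was -0.96 in KO and -0.55 in WT, a difference of -0.41 (SE 0.11, adjusted p = 0.571). Calcr changed by 0.61 in KO and 0.59 in WT (difference 0.01, SE 0.09), and Cd55 by 0.99 and 1.02 (difference -0.03, SE 0.12).

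The genes with the smallest p for a difference, which did not pass, were Rarb, Dynlt1c and Zfp414 with a more negative response in KO, and Ube2n-ps1, Snx7 and Zranb2 with a more positive one, all at an adjusted p of 0.571. Dynlt1c, a dynein light chain gene of a cluster of near-identical copies whose reads may have been split, was at 9.61, 7.43 and 10.3 CPM in KO necrotic, against 15, 20.5 and 16.3 CPM in KO viable libraries (log2 fold change -0.91, SE 0.20, adjusted p = 0.0121). The call was lost without KO necrotic 2 or KO viable 2 (adjusted p up to 0.0572). In WT it was at 9.45, 16.3 and 13.6 CPM with necrotic and 9.65, 8.06 and 13.3 CPM with viable supernatant, so those groups overlap. The retinoic acid receptor gene Rarb was at 0.119, 0.208 and 0.18 CPM in KO necrotic, against 0.574, 0.545 and 0.526 CPM in KO viable libraries. Its KO necrotic values lie near the level of 3 counts. The call was lost whichever KO library was left out (adjusted p up to 0.166). Zranb2 was at 74.6, 71.9 and 71.9 CPM in KO necrotic, against 62.6, 72.9 and 74.7 CPM in KO viable libraries, and the KO groups overlap.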

How the data were processed

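Per the submitters' processing notes, reads were handled with CASAVA, aligned with HISAT2 2.0.5 to GRCm38 and counted with HTSeq 0.6.1. The annotation version and strand setting were not given in the sources used here. The deposited table holds whole-number read counts per gene, not normalized by the authors. Libraries were NEBNext Ultra, paired-end, of total RNA, per the labels' protocols. Near-identical copies and overlapping or antisense genes may have exchanged reads and are uncertain.

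From these counts, all 12 libraries were fitted with 1 mean per group in edgeR 4.0.16 (R 4.3.3), with TMM scaling and filterByExpr, which left 14153 of 46983 genes. Quasi-likelihood tests gave KO necrotic over KO viable, the same contrast in WT, and their difference. P-values were adjusted by the Benjamini-Hochberg method across the 14153 genes, and genes under 0.05 are called. Levels are TMM-scaled CPM, and log2 fold changes of low genes depend on edgeR's prior count. Intervals and floors cover counting error only. The script was tested on simulated data. Alternatives were other scalings, filters and tools, length and GC offsets, a replicate block, a fold threshold, the KO libraries alone and each KO library left out. Named genes were Clec4e, the 15 largest changes each way at 1 CPM or more with groups apart, and the 10 largest CPM differences each way. Up to 6 members per list with the smallest p, and the smallest p for the difference, were added. Other list members were picked for their role after their values were seen. Promoters shown are of called members with the smallest p that were in the promoter table. For interferon-stimulated genes the window also had to hold the element. The members and all gene lists were chosen with earlier results of these data known. Same-numbered KO libraries deviated together with correlations of 0.085, 0.041 and 0.101 over 10152 genes, so the numbers were not treated as pairs. Gene positions are from a GENCODE M21 annotation of GRCm38; promoters are from RefSeq. A few genes are not reported here.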

Additional observations from a re-analysis of the deposited data

How the results depend on the processing

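The 1052 genes called between KO necrotic and KO viable cultures stayed within 1.5 times under other scalings, filters and tools, from 947 with a replicate block to 1543 without the low-count filter (1047 with median-ratio factors, 1089 with upper-quartile factors, 1120 above 5 CPM, 1194 with DESeq2, 1072 with limma voom, 1105 with length and GC offsets). The fit without the filter gave each gene the spread of the trend, as described below, so its count is less certain. Upper-quartile factors moved the split to 667 higher and 422 lower. Other settings moved the counts by more than 1.5 times. A test against a 1.2-fold change called 30 genes (14 higher, 16 lower). Fitting the 6 KO libraries alone called 1820 (977 higher, 843 lower), and 1928 (1028 higher, 900 lower) with the replicate block; the cause was not tested. With each KO library left out in turn the counts lay between 383 and 647, with 198 to 345 higher and 185 to 302 lower.

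For the replicate numbers, every library correlated best with the library of its own number, but too weakly to take the numbers as pairs. With the replicate block 508 genes were higher and 439 lower, and with the block and length and GC offsets together 1055 were called. The lower immediate early genes numbered 10 with the block and 11 with the block and offsets, against 4 without it. With the block 0 were higher, and 1 with the block and offsets. Arg1 and Cthrc1 were called with the block (adjusted p = 0.0459 and 0.0325).

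No gene differed between the KO and WT responses under the alternatives that hold WT libraries, except in the fit without the low-count filter, which called 209. In that fit edgeR's prior degrees of freedom were infinite, against 7.38 with the filter, so each gene took the spread of the trend, and 206 of the 209 were tested with the filter and did not pass. The fits of the KO libraries alone cannot test this difference. Clec4e, which was not called, changed sign: its log2 fold change was -0.10 without KO necrotic 3, -0.08 without KO viable 1 and -0.07 without KO viable 2. Its value was 0.29 without KO viable 3. Other genes that did not pass and lie near 0 changed sign as well. With upper-quartile factors Ifnar1 was at 0.003, and with limma voom Flt3 was at 0.007. With length and GC offsets, alone and with the replicate block, the log2 fold changes were 0.017 and 0.017 for Csf1r, -0.025 and -0.025 for Fcer1g, 0.011 and 0.019 for Flt3, -0.029 and -0.028 for H2-DMb1, 0.015 and 0.014 for Ifnar1 and 0.005 and 0.005 for Plekhm1. With each library left out in turn they ran from -0.166 to 0.161 for Flt3, -0.033 to 0.081 for H2-DMb1, -0.044 to 0.02 for Ifnar1, -0.081 to 0.006 for Ifnar2, -0.029 to 0.047 for Tnfrsf11a and -0.019 to 0.108 for Zranb2. Rpl3-ps2 was not called by DESeq2 (adjusted p = 0.102), limma voom (0.06) or with length and GC offsets (0.077), Ifi44 and Saa3 were not called by limma voom (adjusted p = 0.0566 and 0.0998), and BC005537 was not called without the filter (adjusted p = 0.069). Genes near 3 counts, such as Rarb and Dcn, are limited by depth.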

Other observations

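Immediate early genes, which cells switch on within minutes of a stimulus, were lower where they passed: 4 of 23 in KO necrotic cultures and 0 higher, with a median log2 fold change of -0.31. Atf3, a stress-responsive transcription factor, was at 70.2, 74.3 and 71.3 CPM in KO necrotic, against 88.1, 89.9 and 88.8 CPM in KO viable libraries (log2 fold change -0.31, SE 0.04, adjusted p = 0.000896 in edgeR's quasi-likelihood test). Egr2 was at 7.32, 8.27 and 8.5 CPM in KO necrotic, against 14, 14.3 and 16.1 CPM in KO viable libraries (log2 fold change -0.89, SE 0.14, adjusted p = 0.00219). For both, the groups do not overlap. The list held 3 to 5 lower members with each library left out in turn, 7 with the KO libraries alone and 11 without the filter on low counts. The last fit gave each gene the spread of the trend, so its count is less certain. With the KO libraries alone and without the filter 1 member was higher, and Jun (0.22) was called higher (adjusted p = 0.0169 and 0.00449). Receptors of the Cd300 family, which bind lipids on dying cells and dampen or raise myeloid activation, gave 4 lower and 0 higher of 12. Cd300lg was at 5.1, 4.63 and 5.4 CPM in KO necrotic, against 7.51, 7.39 and 8.34 CPM in KO viable libraries (log2 fold change -0.62, SE 0.11, adjusted p = 0.00378), and Cd300a was lower too (-0.24). Without KO necrotic 3 the 4 became 2, and 3 or 4 without another library.

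Iron handling genes gave 5 higher and 0 lower of 23, among them the metalloreductase gene Steap4, at 272, 277 and 271 CPM in KO necrotic, against 226, 225 and 206 CPM in KO viable libraries (log2 fold change 0.32, SE 0.06, adjusted p = 0.00325). The 5 became 2 or 3 with each library left out in turn. Of 24 genes of the NRF2, glutathione and thioredoxin systems 3 were higher, led by the peroxiredoxin gene Prdx6, at 203, 203 and 206 CPM in KO necrotic, against 180.0, 172 and 166 CPM in KO viable libraries (log2 fold change 0.24, SE 0.05, adjusted p = 0.00747), and 1 or 2 with each library left out in turn. Of 39 cell cycle genes 2 were lower (5.13%), a share near the 3.43% of all genes, and 1 was lower in the fits without KO necrotic 1, 2 or 3 or KO viable 2 or 3. They included the transcription factor gene E2f2, at 44.6, 45.4 and 49.5 CPM in KO necrotic, against 60.0, 55.5 and 64.5 CPM in KO viable libraries (log2 fold change -0.37, SE 0.07, adjusted p = 0.00553). None of 19 purinergic receptor and ectonucleotidase genes, 18 chaperone and unfolded protein response genes, 22 integrated stress response genes or 17 p53 targets passed.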
